A study of Mus musculus with 8 samples.

Results

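The genes described here are 10 genes of the kidney's vitamin D and FGF23 pathway: Cyp24a1, Cyp27b1 and Cyp2r1, which encode vitamin D hydroxylases, the vitamin D receptor Vdr, the FGF23 co-receptor Klotho (Kl), the FGF receptors Fgfr1, Fgfr2, Fgfr3 and Fgfr4, and Galnt3, which encodes a glycosyltransferase of FGF23. They were chosen by gene symbol and make up 10 of the 17457 genes and 64 of the 57958 transcripts measured. The study asked how dietary phosphate (Pi) acts on the kidney. Kidney cortex RNA was sequenced from C57BL/6J mice fed for 3 days with a high Pi diet (1.2% phosphate, 4 mice) or a normal Pi diet (0.6% phosphate, 4 mice), with 1 library per mouse. The titles of the normal Pi samples mark their mice as wild type (WT), and the labels name no mutant allele or transgene for either diet. The study's methods describe its experimental mice as males aged 8 to 16 weeks. Expression was given as FPKM, the fragments per kilobase of transcript scaled to the library total, so that levels can be set side by side between genes.

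In the proximal tubule, Cyp27b1 makes calcitriol, the active vitamin D hormone, and Cyp24a1 breaks it down. FGF23, a hormone of bone that rises with phosphate intake, binds an FGF receptor together with Klotho, and is known to lower Cyp27b1, raise Cyp24a1 and reduce phosphate reabsorption. Calcitriol itself acts through Vdr and induces Cyp24a1, while parathyroid hormone induces Cyp27b1.

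FPKM carry no read counts, and the step between the lowest values of genes of known transcript length put each library at about 13000000 to 14000000 fragments. High Pi replicate 1 gave a library unlike the others. Its root mean square log2 distance from the other 3 mice of its diet was 0.299, against 0.138 to 0.212 for the other 7 libraries, and its distance from the mean of the normal Pi mice was shorter, at 0.250. Over all genes tested, 5489 of 12383 (44.3%) had their lowest or highest value of the 8 mice in that library, and 6 of the 10 genes described here did (Cyp24a1 and Cyp2r1 as the lowest, and Cyp27b1, Kl, Fgfr1 and Fgfr2 as the highest). The main results are therefore given with all 8 mice and without high Pi replicate 1. The proximal tubule markers, 10 of 10 of them above 0 in every library, summed to 5190 to 5762 FPKM on high Pi (5531 in high Pi replicate 1) and 6035 to 6727 on normal Pi. Slc34a1 made up more of this sum than any other marker, and the other 9 summed to 2367, 2749, 2425 and 2622 FPKM in high Pi replicates 1 to 4, against 2506, 2581, 2556 and 2580 FPKM in normal Pi replicates 1 to 4, which overlap. Cortex markers were thus present at high levels, and the 8 podocyte markers, found in the glomeruli of the cortex, summed to 117 to 159 FPKM on high Pi (159 in high Pi replicate 1) and 120 to 131 on normal Pi. Markers of the inner medulla summed to 4.11 to 11.7 FPKM on high Pi and 3.94 to 7.74 on normal Pi. In these bulk samples, fewer cells of a type and less RNA per cell cannot be told apart.

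With all 8 mice, 0 of the 10 genes were called at an adjusted p under 0.05 with limma-trend, a linear model fitted to log2(FPKM + 1) across all 12383 genes that reached 0.5 FPKM in 4 mice or more, against 37 genes (0.299%) of the whole table. At an unadjusted p under 0.05 there were 4 (Cyp24a1, Vdr, Kl and Galnt3), against 9.35% of all genes tested. Without high Pi replicate 1, 3 of the 10 passed, against 3.4% of all genes. Of these, Cyp24a1 rose, against 1.26% of all genes that passed as higher, and Kl and Galnt3 fell, against 2.14% that passed as lower. At an unadjusted p under 0.05 there were then 5, against 18.8%. The same 3 genes passed when all 8 mice were kept and each library was weighted by how well it followed the model. In that fit 3.76% of all genes passed. A library far from its diet counts less there, so the fit is not separate from leaving out high Pi replicate 1. None of the 10 genes separated the diets completely when all 8 mice were counted, against 5.02% of all genes, and the same 3 did so without high Pi replicate 1, against 17.3%.

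**Figure D1:**
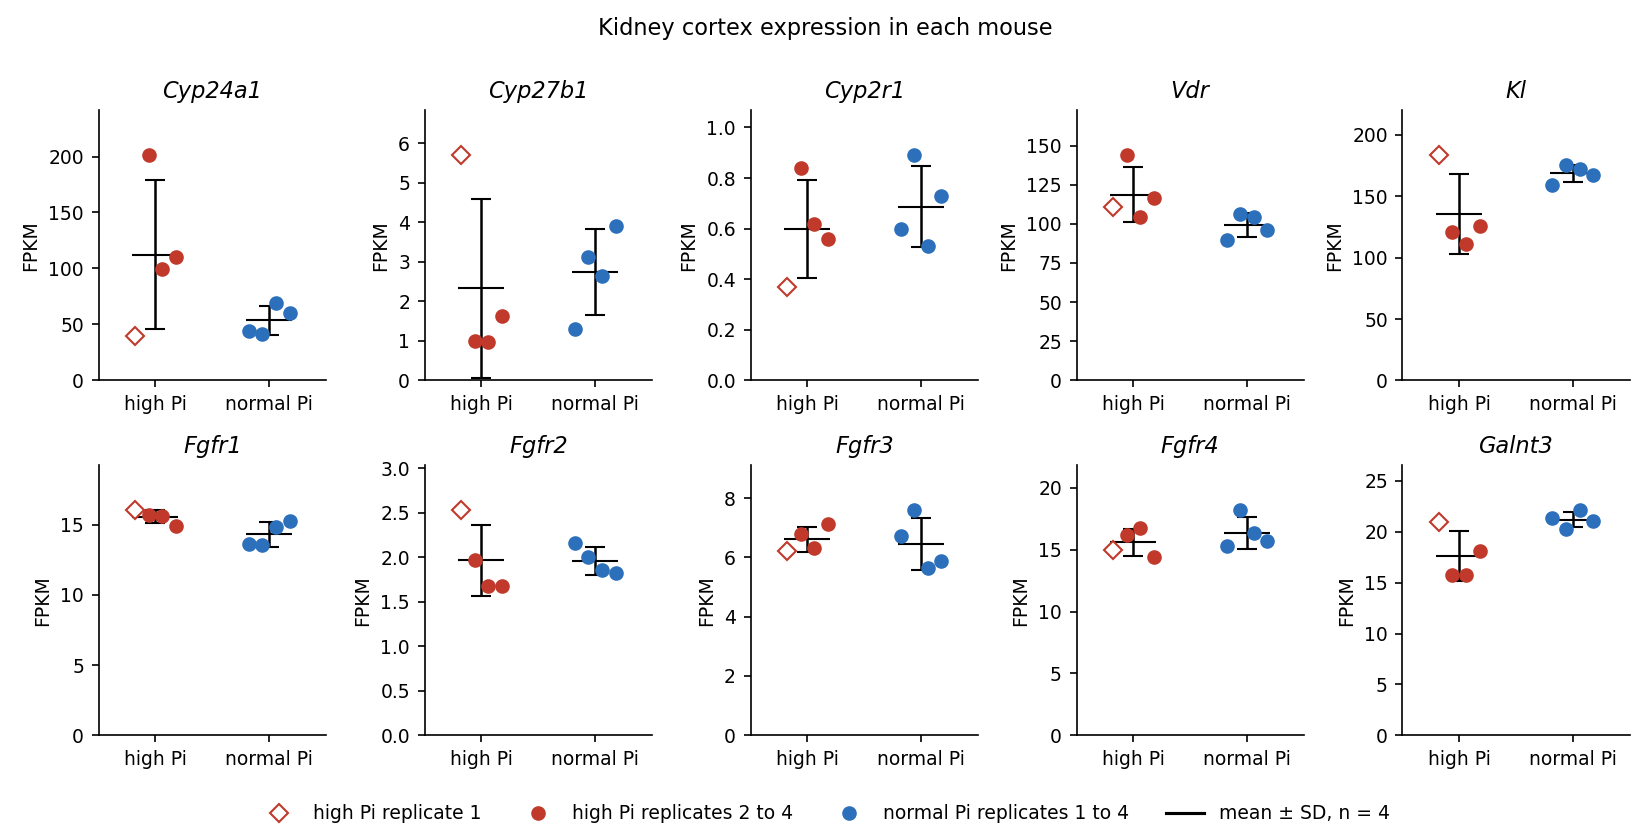
FPKM (y axis, from 0, a separate scale per gene) of each of the 10 genes in the kidney cortex of high Pi mice (red, left) and normal Pi mice (blue, right), 1 point per mouse, with high Pi replicate 1 as an open diamond and the mean ± SD of 4 mice in black. The diamond lies among the normal Pi mice or beyond them for Cyp24a1, Cyp27b1, Kl and Galnt3, while the 3 other high Pi mice lie above all normal Pi mice for Cyp24a1 and below all of them for Kl and Galnt3.

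Cyp24a1, the enzyme that inactivates calcitriol and its precursor, was the gene with the largest difference among the 10. In GRCm38.p6, the build of all coordinates given here, it spans 170482957 to 170497145 of chromosome 2 (gene ID 13081). It had 39.4, 201, 99.3 and 110.0 FPKM in high Pi replicates 1 to 4, against 44.0, 41.8, 68.8 and 60.6 FPKM in normal Pi replicates 1 to 4. The lowest value of all 8 mice was that of high Pi replicate 1, while the other 3 high Pi mice all lay above every normal Pi mouse. The mean was 112 ± 66.7 FPKM on high Pi and 53.8 ± 13.1 on normal Pi (SD, n = 4 each), a log2 fold change of 0.86 (standard error, SE, 0.366, 95% interval 0.066 to 1.66, adjusted p = 0.465 by limma-trend). The exact two-sided permutation test on the FPKM of 4 against 4 mice gave p = 0.143. In the other 7 mice the high Pi mean was 137 ± 55.9 FPKM (SD, n = 3), 2.54 times the normal Pi mean, and the log2 fold change was 1.29 (SE 0.227, adjusted p = 0.0134 by limma-trend). Leaving out high Pi replicate 2, the highest of the 8 mice, instead gave 0.51 (adjusted p = 0.718 by limma-trend). All of its value was given to 1 transcript, NM_009996.4, with an estimated 1900 to 9300 fragments per library, a counting error of 2.31% to 1.04%.

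Cyp27b1, which encodes the enzyme that makes calcitriol, was expressed at a much lower level (chromosome 10, 127048246 to 127054884, gene ID 13115). It had 5.69, 1.00, 0.97 and 1.64 FPKM in high Pi replicates 1 to 4, against 1.30, 3.12, 2.63 and 3.90 FPKM in normal Pi replicates 1 to 4. The highest value of all 8 mice was again in high Pi replicate 1, and the diets overlapped with or without it, since normal Pi replicate 1 lay among the other 3 high Pi mice. The mean was 2.33 ± 2.26 FPKM on high Pi and 2.74 ± 1.09 on normal Pi (SD, n = 4 each), a log2 fold change of -0.32 (SE 0.347, adjusted p = 0.858 by limma-trend), with an exact two-sided permutation p of 0.80. With high Pi replicate 1 left out the high Pi mean was 1.20 ± 0.378 FPKM (SD, n = 3) and the log2 fold change was -0.72 (SE 0.213). The unadjusted p was then 0.00572 and the adjusted p = 0.0967 by limma-trend, which does not pass. Over the 8 ways of leaving out 1 mouse the change was -0.72 to -0.14, and with all mice and a pseudocount of 0.1 in place of 1 it was -0.51. The transcript NM_010009.2 held 97.9% of the gene's value, with an estimated 30 to 170 fragments per library. Counting alone gives an error of 18.1% at the lowest of these and 7.61% at the highest.

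The 250 bases before the start of Cyp27b1 are shown because this gene and Cyp24a1 are the hormone-regulated pair of the pathway, and because it was the only one of the 8 genes in the promoter table with a TATA-like element in that window. The sequence is from RefSeq, GRCm38.p6, chr10:127047996-127048245, plus strand, read 5′ to 3′, with the matches in capitals: TATATA, whose first base lies 37 bases before the start, and ATTGG, the reverse complement of CCAAT, 86 bases before it.
Cyp27b1: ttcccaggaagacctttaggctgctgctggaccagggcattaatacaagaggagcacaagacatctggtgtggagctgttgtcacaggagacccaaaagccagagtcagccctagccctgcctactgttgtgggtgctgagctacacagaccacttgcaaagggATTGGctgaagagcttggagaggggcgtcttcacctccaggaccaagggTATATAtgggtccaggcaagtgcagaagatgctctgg

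In these windows 4 short motifs were searched on both strands. The TATA-like motif was TATATA, the binding motif of the factor NF-Y was CCAAT, the Sp1 motif known as the GC box was GGGCGG, and the half-site shared by nuclear receptors was AGGTCA. Of all 32851 RefSeq promoters of the same length, 5.25% held TATATA, 33.8% held CCAAT, 32.7% held GGGCGG and 14.0% held AGGTCA. The table had 9 promoters for 8 of the 10 genes, the others being Cyp24a1 and Fgfr1. TATATA was found in Cyp27b1, CCAAT in Cyp27b1, Cyp2r1 and Fgfr3, GGGCGG in Fgfr3, Fgfr4, Galnt3, Kl and Vdr, and AGGTCA in none of the 9. The window of Galnt3 in this table lies inside the annotated span of the gene. The share of G and C was 54.4% in Cyp27b1, against a median of 52.4% over all promoters.

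Set side by side in each mouse, the 2 enzymes gave Cyp24a1 to Cyp27b1 ratios of FPKM of 6.93, 201, 102 and 67.1 in high Pi replicates 1 to 4, against 33.8, 13.4, 26.2 and 15.5 in normal Pi replicates 1 to 4. The ratio does not depend on how a library was scaled. High Pi replicate 1 had the lowest ratio of the 8 mice and the other 3 high Pi mice had the 3 highest. As log2((Cyp24a1 + 1)/(Cyp27b1 + 1)) the ratio was 5.08 ± 1.74 on high Pi and 3.90 ± 0.454 on normal Pi (SD, n = 4 each), a difference of 1.18 (exact two-sided permutation test, p = 0.20). Without high Pi replicate 1 it was 5.91 ± 0.665 on high Pi (n = 3), a difference of 2.01 with an exact permutation p of 0.0571, the smallest that 3 mice against 4 allow.

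**Figure D2:**
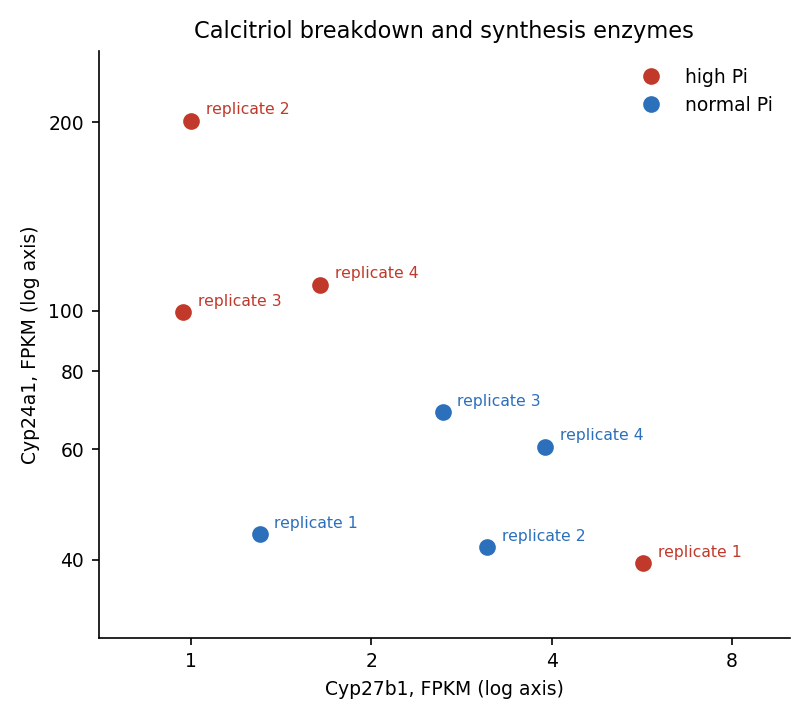
Cyp24a1 FPKM (y axis, log scale) against Cyp27b1 FPKM (x axis, log scale), 1 point per mouse, high Pi in red and normal Pi in blue, with the replicate number beside each point. High Pi replicates 2 to 4 lie at the upper left (0.97 to 1.64 FPKM of Cyp27b1, 99.3 to 201 of Cyp24a1), and high Pi replicate 1 lies at the lower right (5.69 and 39.4 FPKM).

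Cyp2r1, whose enzyme makes the circulating precursor of calcitriol, mainly in the liver, was the lowest of the 10 genes (chromosome 7, 114550123 to 114563048, gene ID 244209). It had 0.37, 0.84, 0.62 and 0.56 FPKM in high Pi replicates 1 to 4, against 0.60, 0.89, 0.53 and 0.73 FPKM in normal Pi replicates 1 to 4. The diets overlapped throughout, with a log2 fold change of -0.08 (95% interval -0.32 to 0.15, adjusted p = 0.893 by limma-trend), or -0.01 without high Pi replicate 1. None of its 5 transcripts averaged 0.5 FPKM.

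Vdr, the nuclear receptor of calcitriol (chromosome 15, 97854427 to 97908296, gene ID 22337), had 111, 144, 104 and 116 FPKM in high Pi replicates 1 to 4, against 89.9, 106, 105 and 95.8 FPKM in normal Pi replicates 1 to 4. In Vdr, 3 of the 4 high Pi mice were above every normal Pi mouse, and the exception was high Pi replicate 3. The mean was 119 ± 17.5 FPKM on high Pi and 99.1 ± 7.69 on normal Pi (SD, n = 4 each), which is 19.7% higher on high Pi. The log2 fold change was 0.25 (SE 0.0970, adjusted p = 0.404 by limma-trend), and 0.28 without high Pi replicate 1 (adjusted p = 0.168), and the exact two-sided permutation p over 4 against 4 mice was 0.0857. Without high Pi replicate 2, the highest of the 8 mice, it was 0.15 (adjusted p = 0.649 by limma-trend), and Vdr passed in none of these fits.

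Kl encodes Klotho, the membrane protein of distal and proximal tubules that gives FGF23 its affinity for FGF receptors (chromosome 5, 150952607 to 150993817, gene ID 16591). It had 183, 121, 111 and 126 FPKM in high Pi replicates 1 to 4, against 159, 176, 172 and 168 FPKM in normal Pi replicates 1 to 4. High Pi replicate 1 had the highest value of all 8 mice, while the other 3 high Pi mice were below every normal Pi mouse. The mean was 135 ± 32.6 FPKM on high Pi and 169 ± 7.18 on normal Pi (SD, n = 4 each), a log2 fold change of -0.34 (SE 0.126, adjusted p = 0.372 by limma-trend), with an exact two-sided permutation p of 0.143. In the other 7 mice the mean was 119 ± 7.24 FPKM on high Pi (SD, n = 3), and the log2 fold change was -0.50 (95% interval -0.63 to -0.36, adjusted p = 0.00252 by limma-trend). Of the 2 Kl transcripts, NM_013823.2 held 99.3% of the value and had a log2 fold change of -0.34 (adjusted p = 0.680 by limma-trend over all transcripts tested) with all mice. With high Pi replicate 1 left out this change was -0.49 (adjusted p = 0.0427).

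Markers of the distal convoluted and connecting tubule, a site of Klotho, are set beside Kl. Their 8 genes were all above 0 in every library. They summed to 6988 to 8759 FPKM on high Pi (8115 in high Pi replicate 1) and 6667 to 7990 on normal Pi. Most of that sum was Klk1, at 6497 to 8254 FPKM on high Pi and 6101 to 7422 on normal Pi. Slc12a3, the next largest, had 304 FPKM in high Pi replicate 1. It had 212 to 230 in the other high Pi mice and 246 to 300 on normal Pi, the pattern of Kl. Slc12a3 did not pass with all 8 mice (adjusted p = 0.766 by limma-trend) or without high Pi replicate 1 (adjusted p = 0.0913). By contrast Pvalb was higher on high Pi, at 48.1 to 55.7 FPKM, against 32.0 to 42.3 on normal Pi. Without high Pi replicate 1, 6 of the 8 had a lower mean on high Pi, and the median log2 fold change of the 8 was -0.26, against -0.04 over all genes. In that fit 1 of the 8 passed as lower and 1 as higher, against 2.14% and 1.26% of all genes. With all 8 mice 0 passed as lower and 1 as higher, against 0.121% and 0.178%. The part of these markers in the Kl difference was not tested.

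The Kl promoter is shown as that of a gene that fell without high Pi replicate 1. Capitals mark GGGCGG or its reverse complement CCGCCC, with first bases 43 and 17 bases before the start of Kl (chr5:150952357-150952606, plus strand), from RefSeq, GRCm38.p6. The share of G and C was 66.8%.
Kl: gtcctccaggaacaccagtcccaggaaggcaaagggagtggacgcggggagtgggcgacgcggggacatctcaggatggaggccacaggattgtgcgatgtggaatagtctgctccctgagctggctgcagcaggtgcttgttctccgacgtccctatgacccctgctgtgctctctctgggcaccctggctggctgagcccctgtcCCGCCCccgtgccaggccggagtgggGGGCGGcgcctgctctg

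The 4 FGF receptor genes, the tyrosine kinase receptors to which FGF23 binds with Klotho, differed little between the diets. Fgfr1 (chromosome 8, 25518759 to 25575718, gene ID 14182), regarded as the main receptor for FGF23 in the kidney, had 16.02, 15.70, 15.58 and 14.93 FPKM in high Pi replicates 1 to 4, against 13.59, 13.53, 14.83 and 15.24 FPKM in normal Pi replicates 1 to 4. All but high Pi replicate 4 were above every normal Pi mouse. The mean was 15.6 ± 0.458 FPKM on high Pi and 14.3 ± 0.868 on normal Pi (SD, n = 4 each), a log2 fold change of 0.12 (95% interval -0.04 to 0.27, adjusted p = 0.664 by limma-trend), with an exact two-sided permutation p of 0.0571.

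Fgfr4 (chromosome 13, 55152818 to 55168759, gene ID 14186), a receptor of the proximal tubule, had 14.96, 16.22, 16.78 and 14.40 FPKM in high Pi replicates 1 to 4, against 15.27, 18.20, 16.33 and 15.68 FPKM in normal Pi replicates 1 to 4. Its log2 fold change was -0.07 (95% interval -0.24 to 0.11, adjusted p = 0.879 by limma-trend). Fgfr3 (chromosome 5, 33721724 to 33737068, gene ID 14184) ranged over 6.21 to 7.12 FPKM on high Pi and 5.64 to 7.59 on normal Pi, with a log2 fold change of 0.03 (95% interval -0.18 to 0.24, adjusted p = 0.963 by limma-trend). Fgfr2 (chromosome 7, 130162451 to 130266808, gene ID 14183) ranged over 1.68 to 2.53 FPKM on high Pi and 1.82 to 2.16 on normal Pi, with a log2 fold change of -0.01 (95% interval -0.23 to 0.22, adjusted p = 0.996 by limma-trend). High Pi replicate 1 had the highest Fgfr2 value of the 8 mice. Leaving that library out gave log2 fold changes of 0.10 for Fgfr1, -0.05 for Fgfr4, 0.06 for Fgfr3 and -0.09 for Fgfr2, with no call. For all 4 receptors the interval with all mice, on the FPKM + 1 scale, was within a 1.5-fold change up or down.

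Together the 4 receptors summed to 39.7 ± 1.13 FPKM on high Pi and 39.1 ± 1.55 on normal Pi (SD, n = 4 each). Fgfr1 made up 39.2% ± 0.813 of that sum on high Pi and 36.6% ± 2.97 on normal Pi, while Fgfr4 made up 39.2% ± 1.88 on high Pi and 41.8% ± 1.68 on normal Pi. Fgfr3 took 16.7% ± 1.44 on high Pi and 16.5% ± 1.86 on normal Pi, and Fgfr2 took 4.95% ± 0.990 on high Pi and 5.02% ± 0.471 on normal Pi. The cortex thus held Fgfr1 and Fgfr4 at similar levels, and the makeup of the receptor sum kept the same order of Fgfr3 and Fgfr2 below them in every mouse. Relative to the receptor sum, Kl stood at 4.62, 2.97, 2.76 and 3.30 times in high Pi replicates 1 to 4, against 4.21, 4.25, 4.45 and 4.34 times in normal Pi replicates 1 to 4. The normal Pi mice lay close together in this ratio, the high Pi mice other than replicate 1 lay below them, and replicate 1 lay above.

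**Figure D3:**
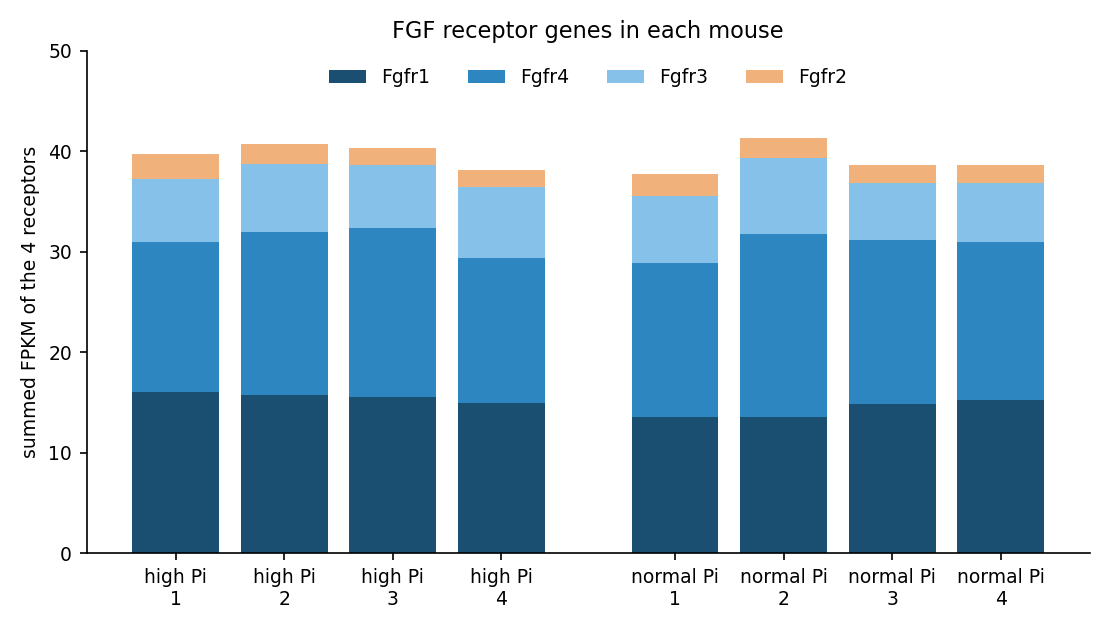
Stacked FPKM of Fgfr1, Fgfr4, Fgfr3 and Fgfr2 (y axis, from 0) in each mouse, the 4 high Pi mice at the left and the 4 normal Pi mice at the right. The bars reach 38.1 to 40.7 FPKM on high Pi and 37.7 to 41.3 on normal Pi, and the receptors hold similar shares in all 8 mice.

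Galnt3 encodes an enzyme that adds O-linked sugars to FGF23 in bone and protects it from cleavage, and in the kidney its transcript was well above the level of Cyp27b1 (chromosome 2, 66082766 to 66125056, gene ID 14425). It had 21.0, 15.7, 15.8 and 18.1 FPKM in high Pi replicates 1 to 4, against 21.3, 20.3, 22.1 and 21.0 FPKM in normal Pi replicates 1 to 4. High Pi replicate 1 lay within the normal Pi range and the other 3 high Pi mice lay below it. The mean was 17.6 ± 2.48 FPKM on high Pi and 21.2 ± 0.757 on normal Pi (SD, n = 4 each), a log2 fold change of -0.26 (SE 0.0906, adjusted p = 0.330 by limma-trend), with an exact two-sided permutation p of 0.0571. In the other 7 mice the high Pi mean was 16.5 ± 1.37 FPKM (SD, n = 3), and the log2 fold change was -0.34 (95% interval -0.50 to -0.19, adjusted p = 0.0258 by limma-trend). Its value was divided between the coding transcript NM_015736.2 (54.6% to 83.8% over the 8 mice) and XR_374409.3, a predicted RNA. NM_015736.2 had 15.2, 13.2, 10.3 and 9.89 FPKM in high Pi replicates 1 to 4, against 16.7, 13.8, 17.1 and 13.6 FPKM in normal Pi replicates 1 to 4. Its diets overlapped with all mice, with a log2 fold change of -0.32 (adjusted p = 0.704 by limma-trend over all transcripts tested). The 3 high Pi mice other than replicate 1 lay below every normal Pi mouse, and without that library the change was -0.43 (adjusted p = 0.313).

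**Figure D4:**
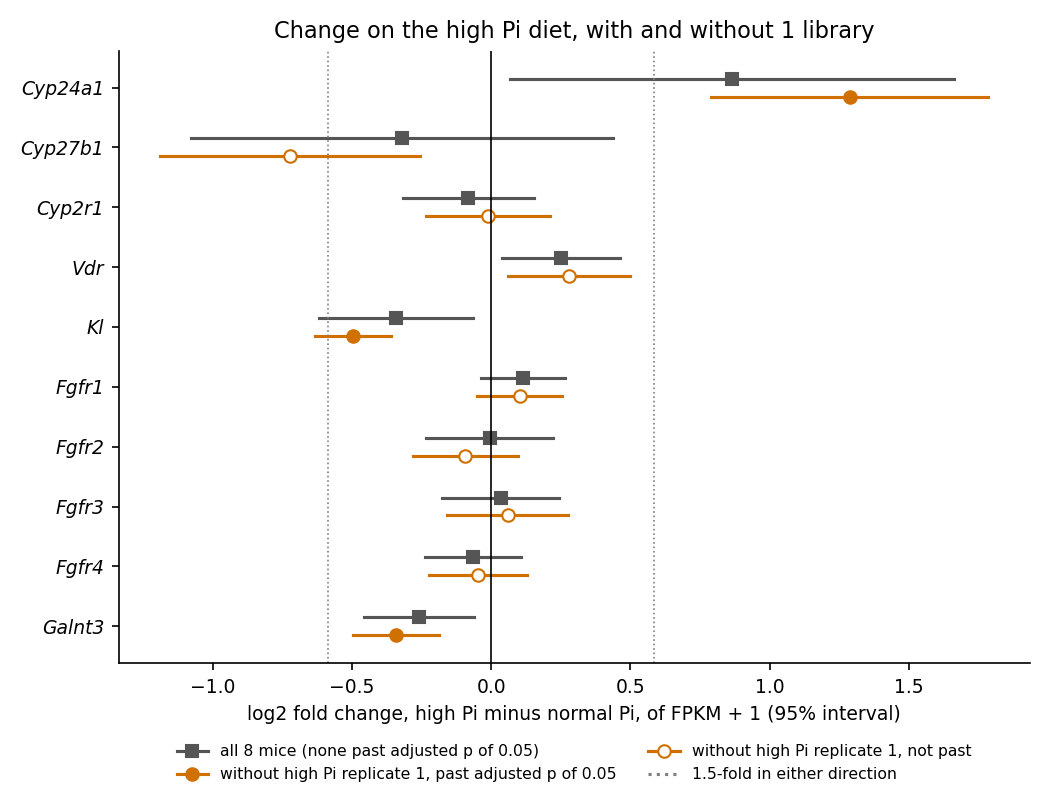
Log2 fold change, high Pi minus normal Pi (x axis, on FPKM + 1), of the 10 genes with 95% intervals, from all 8 mice (grey squares) and without high Pi replicate 1 (orange circles, filled where the adjusted p is under 0.05), with dotted lines at a 1.5-fold change. Cyp24a1 stands at 0.86 and 1.29, Kl at -0.34 and -0.50 and Galnt3 at -0.26 and -0.34, while the 4 FGF receptors stay near 0 in both fits.

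The order of levels on normal Pi was Kl, Vdr, Cyp24a1, Galnt3, Fgfr4, Fgfr1, Fgfr3, Cyp27b1, Fgfr2 and Cyp2r1, and the ranges of neighbours in this order overlapped for Cyp27b1 and Fgfr2 and for no other neighbours. On high Pi the order of the means was the same, but the ranges of Kl, Vdr and Cyp24a1 overlapped, as did those of Galnt3, Fgfr4 and Fgfr1, and those of Cyp27b1 and Fgfr2. In high Pi replicate 2, Cyp24a1 at 201 FPKM was the highest of the 10 genes. With high Pi replicate 1 left out, the highest high Pi means were those of Cyp24a1 (137 FPKM), Vdr (121) and Kl (119), in that order, and Fgfr2 (1.78) lay above Cyp27b1 (1.20).

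Of the 64 transcripts of these genes, 20 averaged at least 0.5 FPKM and 23 could be tested. With all 8 mice 0 passed by limma-trend, against 0.0221% of the 22595 transcripts tested, and 2 had an unadjusted p under 0.05 (NM_013823.2 of Kl and NM_009504.4 of Vdr), against 7.1%. With high Pi replicate 1 left out only NM_013823.2 passed, against 0.0885%. Fgfr1 was divided among 10 transcripts, of which XM_006509013.1 held the largest mean share, from 23.9% to 45.2% of the gene's value over the 8 mice. XM_006509010.2 was above it in high Pi replicate 3 (4.95 FPKM, against 4.67) and in normal Pi replicate 1 (3.33 FPKM, against 3.25). The log2 fold change of XM_006509013.1 was 0.37 (adjusted p = 0.744 by limma-trend), or 0.27 without high Pi replicate 1 (adjusted p = 0.669). Of the 3 Fgfr4 transcripts, NM_008011.2 held 75.7% of the value and had a log2 fold change of -0.06 (adjusted p = 0.942 by limma-trend). Fgfr2 was divided among 15 transcripts, none of which averaged 0.5 FPKM, and Fgfr3 among 23, of which 6 did. Such shares are estimates, because transcripts of a gene have exons in common and reads on those had to be divided among them.

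The genes that work around these 10 were taken from 7 lists. Of 15 tested genes of FGF-ERK feedback, which FGF receptor signalling induces in many tissues, 1 passed with all 8 mice as higher and 0 as lower, against 0.178% and 0.121% of all genes tested. This was Etv4, a transcription factor, with 1.37, 1.35, 1.54 and 1.39 FPKM in high Pi replicates 1 to 4, against 0.55, 0.66, 0.58 and 0.34 FPKM in normal Pi replicates 1 to 4. All 4 high Pi mice, replicate 1 included, lay above every normal Pi mouse. The log2 fold change of Etv4 was 0.66 (SE 0.0903, adjusted p = 0.0214 by limma-trend), or 0.67 without high Pi replicate 1 (adjusted p = 0.00552). At these low levels it depends on the pseudocount and was 1.28 with 0.1 in place of 1 (adjusted p = 0.0271). The call with a pseudocount of 1 was lost without high Pi replicate 4 (adjusted p = 0.0566) and without normal Pi replicates 1 (0.0577), 3 (0.0692) or 4 (0.0620), with changes of 0.60 to 0.67. Dusp6, an ERK phosphatase chosen after its values were seen, had 18.9, 16.6, 13.7 and 15.1 FPKM in high Pi replicates 1 to 4, against 11.7, 12.6, 10.7 and 12.0 FPKM in normal Pi replicates 1 to 4. Its diets did not overlap either, and its log2 fold change was 0.42 (adjusted p = 0.130 by limma-trend), or 0.34 without high Pi replicate 1 (adjusted p = 0.0492). The median log2 fold change of the 15 genes was 0.06, against -0.01 over all genes, and without high Pi replicate 1 it was 0.10, against -0.04.

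Among 11 tested FGF ligands, co-receptors and adaptors 0 passed with all 8 mice, against 0.299% of all genes. At an unadjusted p under 0.05 there were 2, against 9.35%. The gene with the smallest p was Fgfrl1, a receptor of the FGF family without a kinase domain, with 15.5, 15.7, 16.5 and 15.7 FPKM in high Pi replicates 1 to 4, against 12.2, 13.0, 13.1 and 13.6 FPKM in normal Pi replicates 1 to 4. The groups did not overlap. The log2 fold change was 0.27 (adjusted p = 0.153 by limma-trend), or 0.28 without high Pi replicate 1 (adjusted p = 0.0431). In that fit Fgfrl1 was the only one of the 11 to pass, against 1.26% of all genes that passed as higher. Fgf23 itself has no entry among the genes measured, and Pth, which encodes parathyroid hormone, is listed at 0 in every library.

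Of 8 tested phosphate transporters and scaffolds, 0 passed with all 8 mice, against 0.299% of all genes. At an unadjusted p under 0.05 there was 1, against 9.35%. Without high Pi replicate 1, 2 passed as lower, against 2.14% of all genes. Slc34a1, the main sodium-phosphate cotransporter of the proximal tubule, had 3163, 3013, 2764 and 2893 FPKM in high Pi replicates 1 to 4, against 3529, 4146, 4030 and 3930 FPKM in normal Pi replicates 1 to 4. All 4 high Pi mice were below every normal Pi mouse. Its log2 fold change was -0.40 (adjusted p = 0.102 by limma-trend), or -0.43 without high Pi replicate 1 (adjusted p = 0.0156). With quantile normalization of all 8 libraries it was -0.11 (adjusted p = 0.641 by limma-trend). Slc34a3, a second such cotransporter, chosen after its values were seen, was at -0.21 with all mice (adjusted p = 0.680) and -0.36 without that library (adjusted p = 0.0298 by limma-trend). As given above, the other 9 proximal tubule markers overlapped between the diets in their sum, though not each on its own. The marker Slc5a2 had 182 to 246 FPKM on high Pi and 275 to 312 on normal Pi. Its log2 fold change was -0.49 (adjusted p = 0.0584 by limma-trend). Without high Pi replicate 1, 4 of the 10 markers passed as lower, Slc34a1 among them, and 0 as higher. Over all genes these shares were 2.14% and 1.26%. The Slc34a3 values of high Pi replicates 1 to 4 were 46.2, 29.3, 29.6 and 31.8 FPKM, while normal Pi mice spanned 34.5 to 43.2. For Slc34a1, Etv4, Dusp6 and Fgfrl1, high Pi replicate 1 thus lay with the other mice of its diet. For Cyp24a1, Cyp27b1, Kl, Galnt3 and Slc34a3 it did not, nor for Lrp2 and Calb1, given below. Slc34a1, Etv4 and Fgfrl1 were named for their small p with all 8 mice, which favours genes where that library follows its diet. The split between these genes therefore depends partly on how they were chosen.

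Among 10 tested genes of vitamin D uptake, transport and hydroxylation, 0 passed with all 8 mice and 0 had an unadjusted p under 0.05. Over all genes these shares were 0.299% and 9.35%. Lrp2, the endocytic receptor that takes up the vitamin D binding protein in the proximal tubule, had 140, 107, 84.6 and 100 FPKM in high Pi replicates 1 to 4, against 130.1, 128, 122 and 121 FPKM in normal Pi replicates 1 to 4. Its log2 fold change was -0.24 (adjusted p = 0.588 by limma-trend), or -0.37 without high Pi replicate 1 (adjusted p = 0.0276), the only one of the list to pass, while 5 of the 10 then had an unadjusted p under 0.05, against 18.8% of all genes. Leaving out high Pi replicate 3 instead gave -0.13 for Lrp2. Of 11 tested genes of calcium transport, 0 passed with all 8 mice and 0 had an unadjusted p under 0.05, against the same shares. Pth1r, the receptor of parathyroid hormone and the gene with the smallest p, had a log2 fold change of -0.15 (adjusted p = 0.539 by limma-trend), or -0.12 without high Pi replicate 1 (adjusted p = 0.347). In those 7 mice 4 of the 11 had an unadjusted p under 0.05, against 18.8% of all genes. Only the calcium-binding protein Calb1 of the distal tubule, chosen after its values were seen, passed (-0.31, adjusted p = 0.0422 by limma-trend). Over all genes 2.14% passed as lower. Calb1 had 235 FPKM in high Pi replicate 1, against 112, 140 and 128 in high Pi replicates 2 to 4 and 152 to 162 on normal Pi, the pattern seen for Kl.

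Of 8 genes of Klotho shedding and regulation, 0 passed with or without high Pi replicate 1. In each case 1 had an unadjusted p under 0.05, against 9.35% of all genes with all mice and 18.8% without that library. With all 8 mice this was Thra, a thyroid hormone receptor, with 21.3 ± 1.34 FPKM on high Pi and 24.4 ± 1.60 on normal Pi (SD, n = 4 each) and a log2 fold change of -0.19 (adjusted p = 0.407 by limma-trend), or -0.21 without high Pi replicate 1 (adjusted p = 0.158). Of 14 tested genes of FGF23 O-glycosylation, phosphorylation and cleavage, 0 passed with or without that library. With all mice 1 had an unadjusted p under 0.05, against 9.35% of all genes. This was Galnt11, a relative of Galnt3 that is abundant in the proximal tubule, with 281 ± 17.5 FPKM on high Pi and 319 ± 19.4 on normal Pi (SD, n = 4 each) and a log2 fold change of -0.18 (adjusted p = 0.394 by limma-trend), or -0.19 without that library (adjusted p = 0.172). In both Thra and Galnt11 every high Pi mouse lay below every normal Pi mouse, while 5.02% of all genes separated the diets in either direction. Thra and Galnt11, like Etv4, Fgfrl1 and Slc34a1 above, were named for their small p, which favours such a separation. With all 8 mice, the median log2 fold change was -0.08 for vitamin D uptake, -0.11 for calcium transport, -0.03 for FGF ligands and adaptors, -0.06 for Klotho shedding, -0.04 for glycosylation and -0.08 for phosphate transport, against -0.01 over all genes. In the same order the medians without high Pi replicate 1 were -0.17, -0.19, -0.12, -0.12, -0.09 and -0.07, against -0.04 over all genes.

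**Figure D5:**
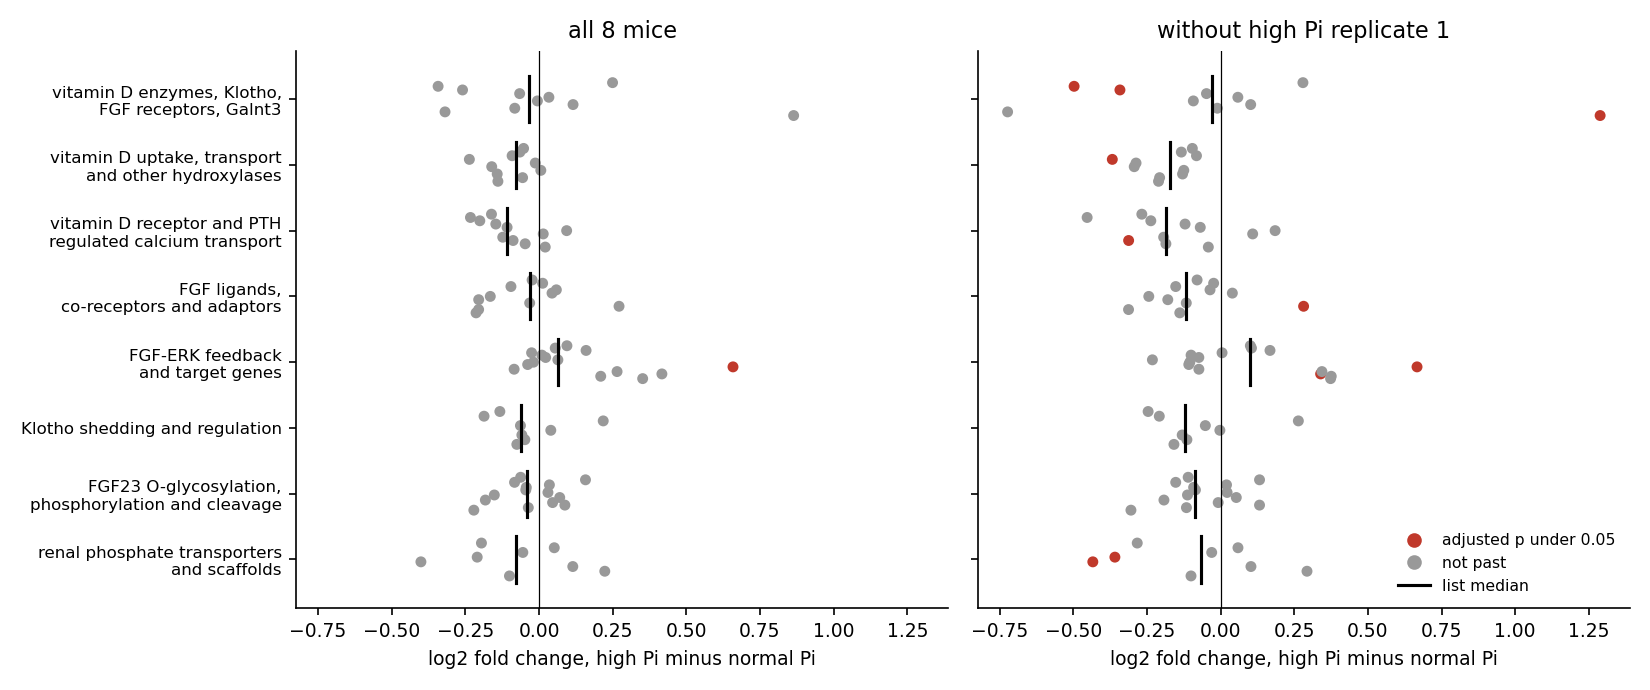
Log2 fold change, high Pi minus normal Pi (x axis, the same scale in both panels), of every tested gene of 8 lists (rows), from all 8 mice (left) and without high Pi replicate 1 (right), with red points at an adjusted p under 0.05 and a black bar at the list median. The top row holds the 10 genes described here, with 0 red points at the left and 3 at the right, and the FGF-ERK row holds 1 and 2.

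Other cell types also varied with the library. Leukocyte markers summed to 315 to 484 FPKM on high Pi, with the highest in high Pi replicate 1, and to 310 to 355 on normal Pi. In the other high Pi mice this sum was 315 to 438. Endothelial markers summed to 266 to 333 on high Pi, highest in high Pi replicate 1 and 266 to 307 in the others, and to 234 to 275 on normal Pi. Adipocyte markers summed to 44.0 to 335 FPKM on high Pi, where high Pi replicate 1 had 54.7, and to 34.0 to 111 on normal Pi. Of these, Adipoq had 0.13, 0, 6.49 and 15.83 FPKM in high Pi replicates 1 to 4, against 3.88, 0, 0 and 0 in normal Pi replicates 1 to 4. High Pi replicates 3 and 4 thus carried more of it and are kept in the fits without high Pi replicate 1. The part of these cells in the values of the 10 genes was not tested.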

How the data were processed

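Kidney cortex RNA of 8 mice was extracted with a column kit and sequenced by the authors on a commercial platform, with reads processed with HISAT and Bowtie2 on GRCm38.p6 per the submitters' processing notes. The tool versions, the counting step and the gene models are not given in the sources used here. The authors deposited FPKM per gene and per transcript, relative to the total of each library and given to hundredths, so a change in a few abundant genes moves all others. The authors ran DESeq2 on counts, which were not used here.

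Diets and replicate numbers came from the sample labels, and each library is a separate mouse per the series' design. FPKM were transformed to log2(FPKM + 1), and genes or transcripts that reached 0.5 FPKM in 4 mice or more entered limma-trend (limma 3.58.1 in R 4.3.3), as high Pi minus normal Pi. P-values were adjusted by Benjamini-Hochberg over all features tested, with a threshold of 0.05. The script was tested on simulated data. Fold changes on this scale understate the change of low genes such as Cyp27b1, Cyp2r1 and Etv4. Single values were compared with exact two-sided permutation tests over the 70 assignments of 4 against 4 mice, whose smallest p is 0.0286. The rest used Python 3.11.15 (pandas 2.3.3, numpy 2.4.6, scipy 1.17.1) and, for plots, matplotlib 3.10.9. For genes, 23 symbols turned into dates were restored from gene IDs, and 17346 IDs, those of the 10 genes included, matched RefSeq GRCm38.p6. Depth was estimated from the steps of low FPKM multiplied by transcript length, and counting errors from it cover counting only.

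The 10 genes and the gene lists were chosen with earlier results of these data known. All 10 genes are described. Of each list the genes past the threshold with the smallest p, 2 at most, or else the gene with the smallest unadjusted p were named, and transcripts averaging at least 0.5 FPKM were considered. Genes named outside that are marked in the text. Each mouse was left out in turn, and further alternatives were a block on the replicate number, library weights, median-of-ratios scaling, quantile normalization, no filter and a pseudocount of 0.1. Their use on the list genes and transcripts was added after seeing the data.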

Additional observations from a re-analysis of the deposited data

Results flagged for a closer look

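Cyp27b1 in high Pi replicate 1, at 5.69 FPKM, lay far from the other 3 mice of its diet, at 0.97 to 1.64 FPKM. The gap to the nearest of them was 0.858 of the range of the 4 mice, above the 95% critical value of Dixon's test for 4 values. It was the only such value among 22 groups checked (the 10 genes and the Cyp24a1 to Cyp27b1 ratio on each diet), and chance alone singles out about 1 group in 20. The gap of Kl in the same library was 0.802 of the range, below the critical value.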

How the results depend on the processing

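Over the 10 genes and 14 alternatives, 128 of 140 log2 fold changes kept their direction and their side of the threshold, 6 came to pass it and 6 reversed. Leaving out the filter or adding the replicate block cannot change the log2 fold change of these genes, so there only the side of the threshold could move. The 6 that came to pass were Cyp24a1, Kl and Galnt3 without high Pi replicate 1 and with library weights (1.10, -0.43 and -0.29). The count of these genes called was thus 3 with library weights and 0 to 3 with 1 mouse left out, being 0 unless high Pi replicate 1 was the one left out. The reversals were of values near 0. With 1 mouse left out Fgfr2 was -0.093 to 0.040 (above 0 without high Pi replicate 3 or 4 or normal Pi replicate 1 or 2). In the same way Fgfr3 was -0.020 to 0.10 (below 0 without normal Pi replicate 3 or 4). Outside the 10 genes and this count, the list gene Calb1 was -0.31 to 0.043 with 1 mouse left out (above 0 without high Pi replicate 2). Over all genes, 37 calls became 8 with no filter on low values, 466 with library weights and 4 to 421 with 1 mouse left out (4 to 19 unless it was high Pi replicate 1). The transcripts called were 0 to 1 with 1 mouse left out. The Cyp24a1 to Cyp27b1 difference was 0.66 to 2.01 with 1 mouse left out. The causes were not tested.

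No pairing by replicate number was seen: same-numbered libraries had correlations of -0.21 to 0.061, and 1 of 8 correlated best with its own number. These few correlations cannot exclude a pairing. With the replicate number as a block, 11 genes passed and Etv4 did not (adjusted p = 0.0819 by limma-trend). The Cyp24a1 to Cyp27b1 difference was 1.18, which such a block cannot change. FPKM of Cyp27b1 rest on few fragments, and 4 mice per diet with 1 library apart limit what the all-mice comparison could detect.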
